A study of Mus musculus with 4 samples.

Results

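Secreted signals that call or sustain white blood cells were followed: the chemokine genes Ccl2, Ccl7, Ccl5, Ccl20, Ccl28 and Cx3cl1 and the colony-stimulating factor genes Csf1, Csf2 and Csf3. These 9 symbols were chosen by name among the 22180 genes named on the array, and all 9 were measured. The cells were lines grown from mammary tumours of female FVB mice carrying MMTV-NIC, a transgene whose viral promoter drives activated ErbB2 together with Cre in mammary epithelium. They were given GSK126 (2 µM, n = 2 arrays) or its vehicle DMSO (n = 2 arrays), in both cases for 96 h. GSK126 inhibits EZH2, the enzyme that writes the repressive histone mark H3K27me3, and the comparison recorded the response of the transcriptome to it. How many lines were used, and whether replicates were separate cultures, is not stated in the labels, so p-values reflect differences among these arrays alone and these could be purely technical.

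Chemokines are small secreted proteins that guide leukocytes through receptors on the leukocyte surface. In the CC class the first pair of conserved cysteines is adjacent; Cx3cl1, also called fractalkine, belongs instead to the CX3C class and is first made as a membrane-bound protein. Colony-stimulating factors act on the myeloid lineage: Csf1 on macrophages, Csf2 on granulocytes and macrophages, and Csf3 on neutrophils. Epithelial and tumour cells make many of these ligands, often under control of the transcription factor NF-kB, and the cells that respond are mostly of blood-borne lineages.

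Markers of the labelled cell type were present. Epcam lay between 10.44 and 10.62 and Krt18 between 11.63 and 11.71 on the log2 scale over the 4 arrays. Ptprc, the pan-leukocyte antigen CD45, lay between 3.37 and 3.67, below 4.77, the 40th percentile of mean level. Genes with a mean over the 4 arrays below that level are called dim here. Of the 8 epithelial markers listed, 7 were not dim, and 1 was, Krt19, at 4.62 to 4.89. GSK126 replicate 2 correlated least with the other arrays over all probe sets (r = 0.981 to 0.983, against 0.986 to 0.988 among the rest). Values below are log2 expression values, means are given ± SD (n = 2 arrays), and a change is the GSK126 mean minus the DMSO mean in log2 units, with its standard error (SE) and 95% confidence interval.

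Among the 9 ligand genes, 6 (Ccl2, Ccl7, Ccl5, Ccl20, Ccl28 and Csf1) were higher in both GSK126 arrays than in either DMSO array, and the changes ran from 0.27 for Ccl28 to 0.62 for Ccl7. Such a separation upward was seen for 18.2% of all genes. Csf2, Csf3 and Cx3cl1 had overlapping groups, with a small positive change for Csf2 and negative ones for Csf3 and Cx3cl1. None of the 9 passed an adjusted p of 0.05 in limma with Benjamini-Hochberg adjustment over all genes, a threshold that 0.433% of all genes passed. Without adjustment, 6 of the 9 were higher at p under 0.05 and 0 were lower, against 4.64% higher and 5.93% lower among all genes. The median change of the 9 was 0.38, against -0.0077 over all genes. As the ligands had been picked with earlier results of these arrays known, the shares describe them and do not test them. The count of 6 was 3 (Ccl5, Ccl20 and Csf1) when GSK126 replicate 2 was left out, and between 4 and 5 when any other array was.

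**Figure D1:**
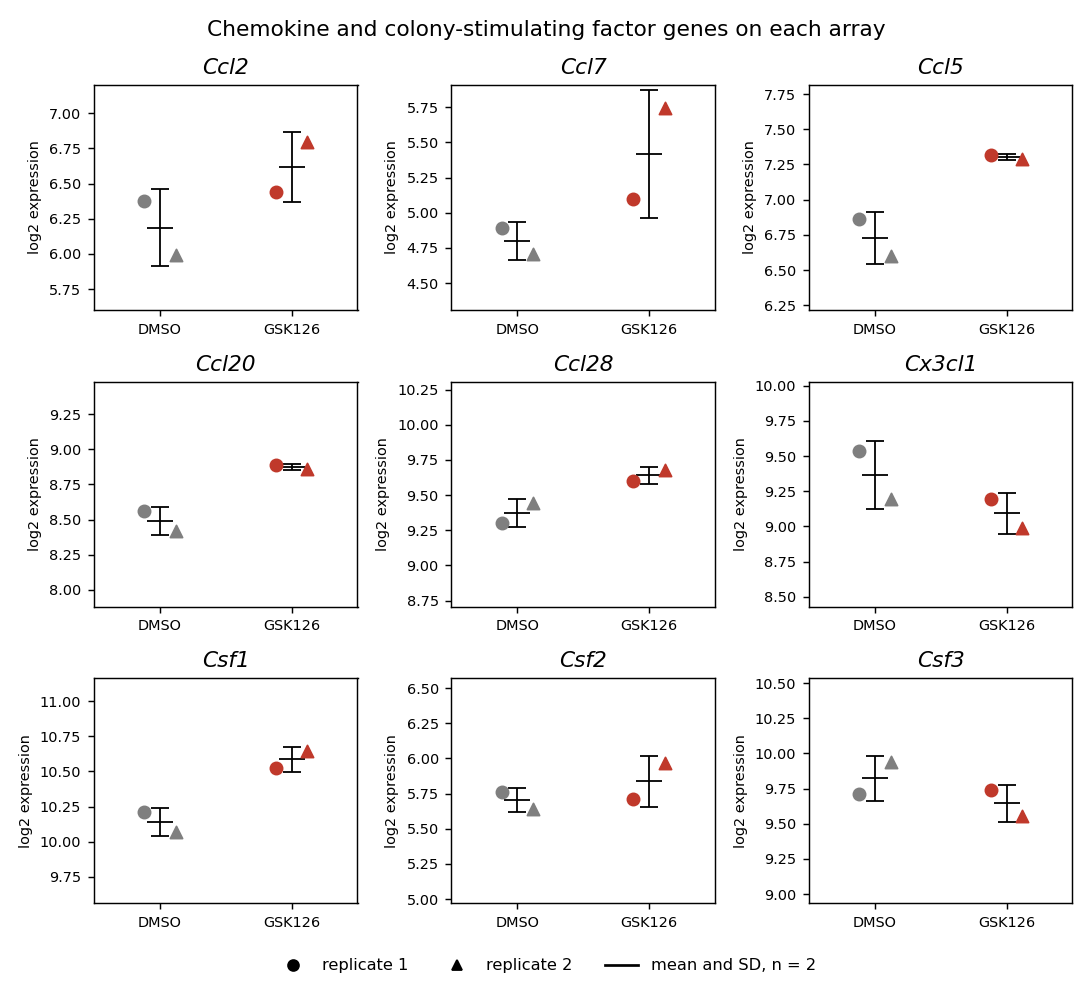
Log2 expression of each ligand gene on the 4 arrays, by group, with circles for replicate 1, triangles for replicate 2 and black bars for mean ± SD (n = 2); every panel spans 1.6 log2 units. Both GSK126 arrays lie above both DMSO arrays for 6 of the 9 genes, and the groups overlap for Cx3cl1, Csf2 and Csf3.

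The sequences around the start of transcription are shown for 4 of these genes, chosen to set the ligands with separated groups beside Cx3cl1, whose mean was lower. RefSeq promoter windows (GRCm38.p6), running from 250 bases before the start to 50 after it, were matched by symbol for 5 of the 9 genes (Ccl20, Ccl28, Cx3cl1, Csf1 and Csf2). The 4 windows shown lie at chr1:83116516-83116815 (Ccl20, plus strand), chr3:107760420-107760719 (Csf1, minus strand), chr13:119623569-119623868 (Ccl28, plus strand) and chr8:94771930-94772229 (Cx3cl1, plus strand). Each is printed 5′ to 3′ on the strand of its gene, and capitals mark matches to the NF-kappaB consensus on either strand.
Ccl20: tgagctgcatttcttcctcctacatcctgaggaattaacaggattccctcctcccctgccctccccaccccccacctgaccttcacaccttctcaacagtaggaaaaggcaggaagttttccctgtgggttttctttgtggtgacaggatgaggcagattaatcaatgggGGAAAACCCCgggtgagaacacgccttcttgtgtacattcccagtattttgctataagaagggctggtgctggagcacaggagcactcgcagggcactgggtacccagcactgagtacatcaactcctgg
Csf1: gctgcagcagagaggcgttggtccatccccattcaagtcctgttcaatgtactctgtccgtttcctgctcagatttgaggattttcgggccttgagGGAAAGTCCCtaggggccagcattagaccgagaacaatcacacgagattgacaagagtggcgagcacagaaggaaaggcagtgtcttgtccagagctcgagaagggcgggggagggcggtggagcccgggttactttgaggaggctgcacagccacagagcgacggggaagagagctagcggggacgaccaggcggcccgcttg
Ccl28: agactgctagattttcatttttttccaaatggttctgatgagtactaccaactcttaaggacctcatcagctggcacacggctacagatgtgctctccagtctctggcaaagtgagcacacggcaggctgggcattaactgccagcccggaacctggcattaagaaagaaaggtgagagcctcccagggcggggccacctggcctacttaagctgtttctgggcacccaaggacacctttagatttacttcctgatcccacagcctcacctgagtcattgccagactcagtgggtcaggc
Cx3cl1: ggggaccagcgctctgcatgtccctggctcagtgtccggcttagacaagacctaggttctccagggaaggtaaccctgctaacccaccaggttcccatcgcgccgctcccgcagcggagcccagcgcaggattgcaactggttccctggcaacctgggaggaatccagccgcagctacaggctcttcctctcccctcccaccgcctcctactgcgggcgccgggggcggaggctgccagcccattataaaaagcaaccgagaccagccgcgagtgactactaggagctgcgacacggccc
The capitals in Ccl20 begin 80 bases before the start and those in Csf1 begin 154 bases before it. No such match stood in the windows of Ccl28, Cx3cl1 or Csf2, and 8.46% of the 32851 windows in the table held one. The motif TGANTCA, bound by AP-1 factors and read on both strands, occurred in the Ccl28 window alone among these 5 (7.81% of all windows). That match covers bases 21 to 27 of the part after the start, and it is not in capitals. The windows also differed in CpG content, a feature of promoters that Polycomb complexes often occupy. The ratio of observed to expected CpG dinucleotides was 0.644 for Csf1 and 0.615 for Cx3cl1, with 16 and 19 CpG dinucleotides, above the median of 0.384 over all windows. It was 0.145 for Ccl20, 0.196 for Ccl28 and 0.126 for Csf2, below that median. Whether CpG content went with the changes was not tested, and no data on Polycomb occupancy or H3K27me3 were used. A match to a motif is a description of these letters and was not set against binding data.

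Ccl5 and Ccl20 showed the tightest GSK126 values. Ccl5 encodes RANTES, which attracts T cells and monocytes. It stood at 6.86 and 6.60 on DMSO replicates 1 and 2 and at 7.32 and 7.29 on GSK126 replicates 1 and 2. The GSK126 arrays were high and nearly equal, and the lower of them exceeded the higher DMSO array by 0.43, more than the DMSO arrays differed from each other (0.26). The change of Ccl5 was 0.58 (SE 0.12, interval 0.30 to 0.85), a 1.49-fold difference with an unadjusted p of 0.00147 and an adjusted p of 0.140 in limma. Ccl20, a ligand of Ccr6 made by epithelia at mucosal surfaces, stood at 8.56 and 8.42 with DMSO and at 8.89 and 8.86 with GSK126. Its groups were separated by 0.30, against a difference of 0.14 between the DMSO arrays. The change of Ccl20 was 0.38 (SE 0.09, interval 0.18 to 0.59), 1.30-fold, with an adjusted p of 0.198 in limma.

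Ccl2 and Ccl7 encode the monocyte attractants MCP-1 and MCP-3, both ligands of Ccr2, and their genes are direct neighbours on chromosome 11. Ccl2 stood at 6.38 and 5.99 with DMSO and at 6.44 and 6.79 with GSK126. The gap between the groups was 0.06, much less than the differences within them (0.39 and 0.35). For Ccl7 the values were 4.90 and 4.70 with DMSO and 5.10 and 5.74 with GSK126, so that DMSO replicate 2 lay below the dim level and GSK126 replicate 2 lay well above all others. Both genes had the same order of arrays, lowest on DMSO replicate 2 and highest on GSK126 replicate 2. The change of Ccl2 was 0.43 (SE 0.17, interval 0.03 to 0.83, adjusted p = 0.438 in limma). That of Ccl7 was 0.62 (SE 0.22, interval 0.11 to 1.13, adjusted p = 0.392 in limma), the largest change and the widest interval of the 9. Single arrays set much of both values. Without GSK126 replicate 2 the change of Ccl7 was 0.30 and without GSK126 replicate 1 it was 0.94; the change of Ccl2 was 0.24 without DMSO replicate 2 and 0.62 without DMSO replicate 1.

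Ccl28, the mucosal chemokine that attracts plasma cells through Ccr10 and is secreted by the lactating mammary gland, had the smallest of the separated changes. It stood at 9.30 and 9.44 with DMSO and at 9.60 and 9.68 with GSK126, and its groups were 0.16 apart. The DMSO arrays differed by 0.14, with replicate 1 the lower, the reverse of their order for the other 5 separated genes. The change of Ccl28 was 0.27 (SE 0.09, interval 0.06 to 0.47), 1.20-fold, with an adjusted p of 0.362 in limma.

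Cx3cl1, whose receptor Cx3cr1 marks monocytes and macrophages, was the one chemokine of the 6 with a lower mean under GSK126. It stood at 9.54 and 9.19 with DMSO and at 9.20 and 8.99 with GSK126. DMSO replicate 2 and GSK126 replicate 1 were nearly equal, and DMSO replicate 1 was high. The change was -0.27 (SE 0.13, interval -0.58 to 0.03, adjusted p = 0.518 in limma). It ran from -0.45 without DMSO replicate 2 to -0.10 without DMSO replicate 1.

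The colony-stimulating factors differed among themselves. Csf1 stood at 10.21 and 10.07 with DMSO and at 10.52 and 10.65 with GSK126. Its groups were 0.31 apart, against differences of 0.14 and 0.13 within them, and the change was 0.45 (SE 0.09, interval 0.23 to 0.66). This 1.36-fold difference had an unadjusted p of 0.00140 and an adjusted p of 0.136 in limma, the smallest among the 9 genes. Csf2 stood at 5.76 and 5.64 with DMSO and at 5.71 and 5.97 with GSK126, and GSK126 replicate 1 fell between the DMSO arrays. The change of Csf2 was 0.13 (SE 0.14, interval -0.19 to 0.46, adjusted p = 0.804 in limma), and it was 0.01 without GSK126 replicate 2. The other probe set of Csf2, which was dim, stood at 4.34 and 4.29 with DMSO and at 4.39 and 4.48 with GSK126. Csf3 stood at 9.71 and 9.94 with DMSO and at 9.74 and 9.55 with GSK126. Here DMSO replicate 2 was high and the other 3 arrays lay within 0.19 of each other. The change of Csf3 was -0.18 (SE 0.11, interval -0.43 to 0.08, adjusted p = 0.621 in limma). The intervals of Csf1 and Csf3 did not overlap, but the difference between their changes was not tested.

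**Figure D2:**
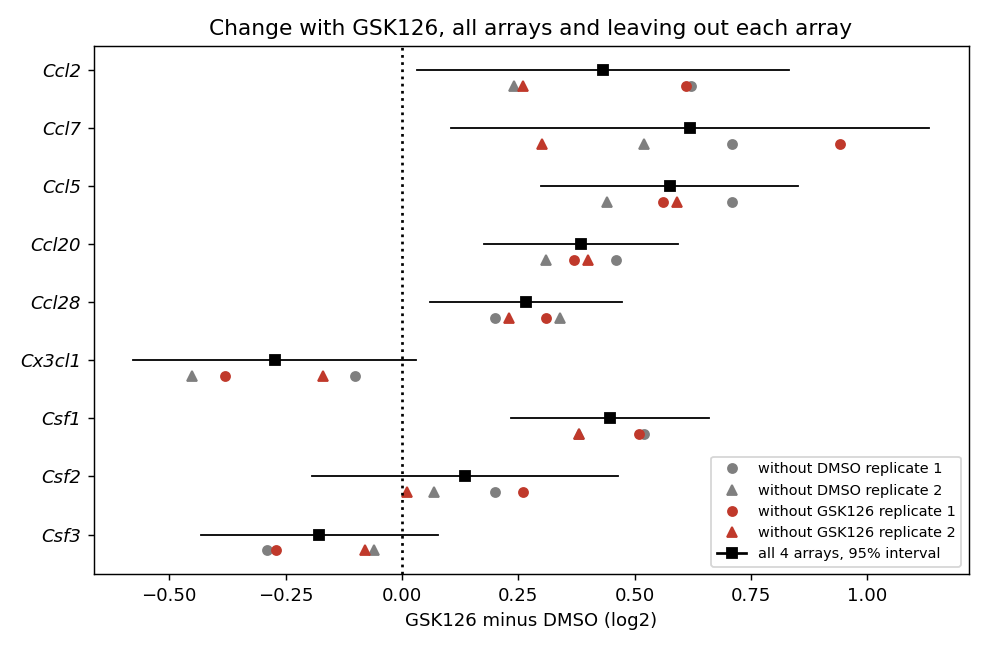
Change of each ligand gene (GSK126 minus DMSO, log2), with black squares and lines for the estimate and 95% interval from all 4 arrays and coloured symbols for the estimate without 1 array. The intervals of 6 genes lie above 0, the other 3 span it, and leaving out an array moved Ccl7 the most, from 0.30 to 0.94.

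In the alternative settings that kept all 4 arrays, none of the 9 genes passed the adjusted threshold in limma. Without the intensity trend 0 of all genes passed, and with all probe sets 0 of all probe sets, so no ligand could pass there. With the replicate block 10 of all genes passed, and in the other settings with all 4 arrays 90 to 149 genes. Over the 12 alternative settings none of the 9 turned its sign. Ccl5, Ccl20 and Csf1 had an unadjusted p under 0.05 in 12 of the 12, Ccl7 in 8, Ccl28 in 7 and Ccl2 in 6. Cx3cl1 was lower at that level in 3 of the 12, Csf3 in 1 and Csf2 in 0. The lowest adjusted p over the alternatives was 0.0717 for Ccl5, 0.0722 for Csf1 and 0.118 for Ccl20 in limma. With all probe sets it was 0.636, 0.613 and 0.660. Ccl5 and Csf1 thus came near the threshold in single settings and were far from it in others. With 2 arrays a group, an exact permutation test of a single gene cannot give a two-sided p below 0.333.

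Most chemokine genes lie in clusters, and the neighbours of the ligands were read from a RefSeq gene table in their chromosomal order. On chromosome 11 the run of 6 genes begins with Ccl2 and Ccl7. Ccl11 (eotaxin), next to Ccl7, was at 4.42 ± 0.37 with DMSO and 4.99 ± 0.10 with GSK126, a change of 0.56 (SE 0.20, adjusted p = 0.390 in limma). It was 0.31 without DMSO replicate 2 and 0.82 without DMSO replicate 1. The changes of the next genes were -0.0074 for Ccl12, 0.37 for Ccl8 and 0.06 for Ccl1, all dim. In this run 4 of the 6 genes, Ccl2, Ccl7, Ccl11 and Ccl8, thus had both GSK126 arrays above both DMSO arrays, which 18.2% of all genes had. Ccl11 was dim as well by its mean over the 4 arrays, though both GSK126 arrays, at 5.06 and 4.92, lay above the dim level. Of the 6 only Ccl2 and Ccl7 had a mean above that level.

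The other run on chromosome 11 begins with Ccl5 and holds 5 chemokine genes. Ccl9, a macrophage inflammatory protein, was at 10.26 ± 0.0058 and 10.38 ± 0.12 (change 0.13, SE 0.09). Ccl6 (-0.29) and Ccl3 (-0.24) were dim, and Ccl3 held the same value, 4.10, on both DMSO arrays. Ccl4, another macrophage inflammatory protein, was at 5.09 ± 0.08 and 5.45 ± 0.10, a change of 0.36 (SE 0.14, adjusted p = 0.428 in limma). Changes along this run had both signs, and Ccl5 had the largest.

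On chromosome 8, Cx3cl1 lies between Ccl22 and Ccl17, the ligands of Ccr4. Ccl17 stood at 6.16 and 5.72 with DMSO and at 6.92 and 7.13 with GSK126. It rose by 1.09 (SE 0.16, adjusted p = 0.0479 in limma), a 2.13-fold change, and was the 1 chemokine past the threshold among the 14 other CC chemokine genes measured. Ccl17 also passed with the robust prior, without dim genes, with averaged probe sets, with centred arrays and after quantile normalization. Its adjusted p there was 0.0210 to 0.0475 in limma. It did not pass without the intensity trend or with all probe sets, where 0 of all genes or probe sets passed. With the replicate block, where 10 of all genes passed, Ccl17 did not (adjusted p = 0.171 in limma). The change of Ccl17 ran from 0.87 without DMSO replicate 2 to 1.31 without DMSO replicate 1. Ccl22 was dim, at 4.48 ± 0.22 and 4.50 ± 0.12. Adjacent genes of this run therefore had a positive, a negative and a near-zero change, and the differences between them were not tested.

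**Figure D3:**
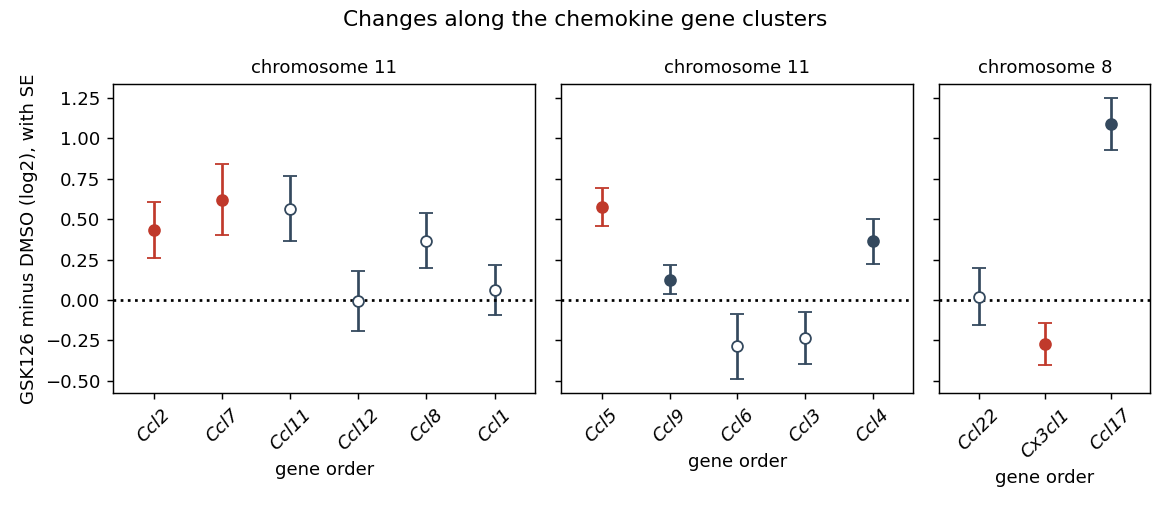
Change with GSK126 (log2, with SE) for chemokine genes in their chromosomal order, with ligand genes described here in red, other genes in dark blue and open symbols for dim genes. Ccl17, at 1.09, lies next to Cx3cl1, at -0.27, and Ccl2, Ccl7 and Ccl11 lie between 0.43 and 0.62.

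As a set, the other CC chemokine genes had 14 of 15 measured, 9 of them dim. Ccl17 was higher and 0 lower past the adjusted threshold in limma. At an unadjusted p under 0.05, 3 were higher (Ccl17, Ccl11 and Ccl4) and 0 lower, and the median change was 0.05.

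Receptors for the 9 ligands were mostly dim, at 8 of 11 measured (12 listed). None passed the adjusted threshold in limma, and 0 reached an unadjusted p under 0.05 in either direction. The median change was 0.02, and turned to -0.02 with arrays centred on their median. The 4 with the smallest p were all dim: Csf2rb (0.19), Ccr3 (-0.19), Ccr1 (-0.17) and Ccr2 (0.14). The 3 that were not dim, named after their values were seen, were Csf2ra, Cx3cr1 and Csf1r. Csf2ra, the binding subunit of the Csf2 receptor, stood at 8.42 and 8.08 with DMSO and 8.24 and 8.22 with GSK126. Cx3cr1 stood at 6.14 and 6.02 with DMSO and 5.81 and 6.62 with GSK126, so that its change of 0.14 rested on GSK126 replicate 2 and was -0.27 without it. Csf1r, the receptor of Csf1, stood at 4.86 and 4.71 with DMSO and 5.05 and 4.77 with GSK126, near the dim level. Of the 4 atypical chemokine receptors, which take up chemokines without signalling migration, 4 were measured and 0 were higher or lower at an unadjusted p under 0.05.

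Genes of the signals that induce these ligands had changes of both signs. Of 14 inducing cytokine and receptor genes, 0 passed the adjusted threshold in limma, while without adjustment 1 was higher and 2 were lower at p under 0.05. The lower ones were Tnf (-0.43, SE 0.11, adjusted p = 0.222 in limma), a main activator of NF-kB, and the TNF receptor gene Tnfrsf1b (-0.20). The higher one was Il17rc (0.25), a subunit of the receptor for interleukin 17. The median of this list was -0.07. Among 11 genes of NF-kB subunits and inhibitors (13 listed), 0 passed in limma, and 0 reached an unadjusted p under 0.05 in either direction. Their median was -0.0005, and it was -0.04 with centred arrays and 0.06 after quantile normalization. The smallest p in that list belonged to the inhibitor genes Nfkbib (-0.18, SE 0.09) and Tnfaip3 (0.17, SE 0.10), which had opposite signs.

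Regulators of the decay of cytokine mRNAs, which bind the transcripts of Ccl2, Csf2 and related genes, had a lower mean with GSK126 in 8 of 9 cases. Of these 9 genes, 0 passed the adjusted threshold in limma, and 4 were lower and 0 higher at an unadjusted p under 0.05, where 5.93% of all genes were lower. The count of 4 was 5 with centred arrays and 2 after quantile normalization. Both GSK126 arrays lay below both DMSO arrays for 8 of the 9, a separation downward that 21.8% of all genes had. The median was -0.22 as deposited, -0.26 with centred arrays and -0.18 after quantile normalization. Hnrnpd, which encodes the AU-rich element binding protein AUF1, stood at 9.42 and 9.57 with DMSO and 9.20 and 9.14 with GSK126 (change -0.32, SE 0.09, adjusted p = 0.273 in limma). Zc3h12a, the gene of the endonuclease regnase-1, had a change of -0.22 (SE 0.09) and Zfp36l1, a relative of tristetraprolin, one of -0.30 (SE 0.12). The Zfp36l1 change ran from -0.45 without DMSO replicate 2 to -0.15 without DMSO replicate 1, and was -0.18 with averaged probe sets. Elavl1 (-0.24, SE 0.10) encodes HuR, which stabilises such transcripts, so the list holds factors of opposite action. Among 7 proteases that shed or trim these ligands, 0 passed in limma and 1 was higher at an unadjusted p under 0.05, the dipeptidyl peptidase gene Dpp4 (0.43, dim).

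Of 7 other haematopoietic growth factor genes measured (9 listed), 0 passed in limma, and without adjustment 1 was higher at p under 0.05 and 0 were lower. That gene was Lif (9.68 ± 0.08 and 9.87 ± 0.02, change 0.20, SE 0.08). Il3, the neighbour of Csf2 on chromosome 11, was dim, with a change of -0.05.

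**Figure D4:**
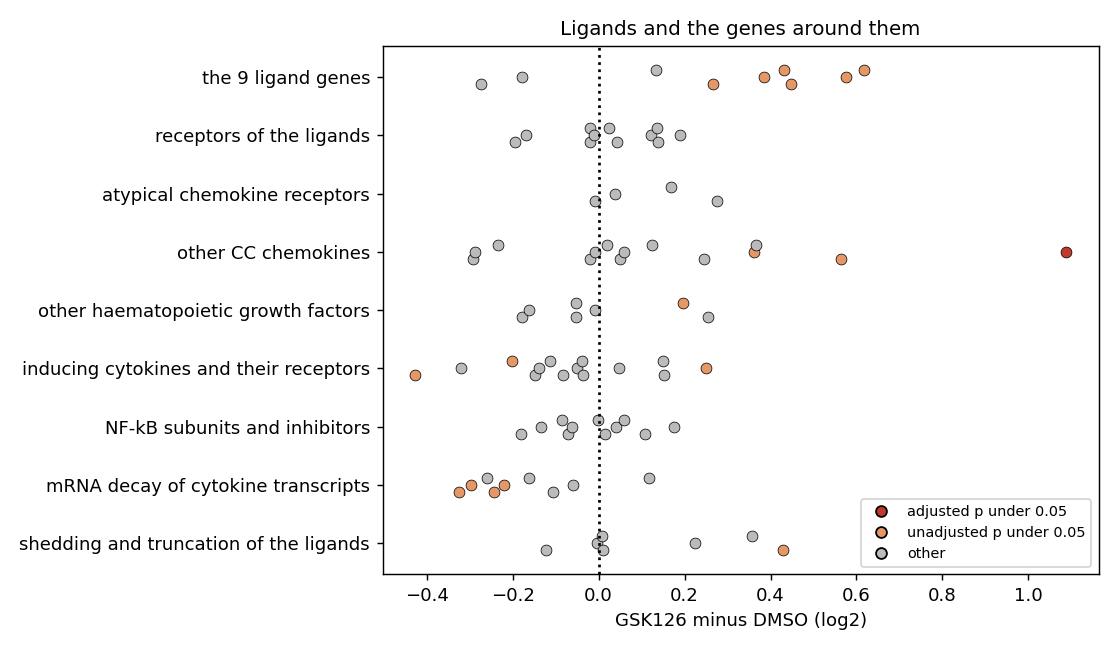
Change with GSK126 (log2) of each measured gene in the ligand group and in 8 lists of genes around it, with 1 point a gene, coloured by whether its p was under 0.05 with or without adjustment over all genes. The single adjusted call is Ccl17, and 8 of the 9 mRNA decay genes lie below 0.

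Markers of responding cells were read beside the ligands. Of 11 macrophage markers, 5 were dim, and 9 had a higher mean with GSK126 as deposited, 7 with centred arrays and 6 after quantile normalization. At an unadjusted p under 0.05, 2 were higher (Cd68 and Mertk) and 0 lower. Over all 22180 genes, 10651 had a higher mean as deposited, 8574 with centred arrays and 10640 after quantile normalization. The 11 macrophage markers had a mean log2 level of 5.43 to 5.45 on the DMSO arrays and 5.59 to 5.69 on the GSK126 arrays. Their changes ran from -0.16 (Adgre1) to 1.00 (Cd68), with a median of 0.11. Cd68 alone of them passed the adjusted threshold in limma (change 1.00, adjusted p = 0.010). The change of Cd68 ran from 0.94 to 1.06 when an array was left out. Mertk, a receptor kinase for the uptake of dying cells and not dim, was at 6.44 ± 0.0053 and 7.09 ± 0.23 (change 0.66, SE 0.13, adjusted p = 0.127 in limma). Its unadjusted p stayed under 0.05 in 12 of 12 alternatives, and its adjusted p in 0. The macrophage genes Adgre1 (3.68 to 4.17 over the 4 arrays) and Itgam (3.56 to 3.86) were dim on each array and were the 2 of the 11 with a lower mean. Of those with a higher mean, Cd14 (10.49 to 10.73, change 0.11, SE 0.09) and C1qb (4.46 to 5.25, change 0.37, SE 0.21) were not dim. The same held for Csf1r (change 0.12, SE 0.16) and C1qa (change 0.04, SE 0.15). The 7 neutrophil markers, 5 of them dim, had a higher mean in 7 of 7 as deposited and in 6 of 7 with centred arrays or after quantile normalization. Their mean log2 level was 5.12 to 5.17 with DMSO and 5.46 with GSK126. The changes in this list ran from 0.02 (Csf3r) to 0.74 (S100a8), with a median of 0.24. S100a8, which epithelial cells also make, passed in limma (8.80 ± 0.07 to 9.53 ± 0.10, adjusted p = 0.0297). The change of S100a8 ran from 0.66 to 0.81 when an array was left out. S100a9, whose protein pairs with that of S100a8, was dim over the 4 arrays, at 4.20 ± 0.21 and 4.83 ± 0.15 (change 0.63, SE 0.18, adjusted p = 0.275 in limma). Its unadjusted p was under 0.05 in 10 of 11 alternatives. These 2 were the neutrophil markers higher at that level, and 0 were lower. Ly6g, a defining neutrophil gene, was dim (4.06 ± 0.49 and 4.34 ± 0.25). The 5 pan-leukocyte markers had a mean log2 level of 4.19 to 4.25 with DMSO and 4.22 to 4.25 with GSK126, and the 7 T cell and NK cell markers 4.33 to 4.40 and 4.35 to 4.43. Of these 12 genes, 0 were higher or lower at an unadjusted p under 0.05. Of other cell types, 1 of 7 fibroblast markers was higher at that level (Pdgfra, dim, 4.35 ± 0.16 and 4.79 ± 0.23), 0 of 6 endothelial markers were higher or lower, and 1 of 8 epithelial markers was lower (Elf3, 6.55 ± 0.06 and 6.23 ± 0.08). The part of any of these markers in the ligand differences was not tested. In such bulk RNA, fewer cells of a type and less RNA per cell cannot be told apart.

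The genes most like each ligand were found by the Euclidean distance between centred log2 values over the 4 arrays. For Ccl5 they were Pde6a (distance 0.0242) and Nap1l2 (0.0459), for Ccl20 L1cam (0.0149) and Lrrc55 (0.0215), and for Csf1 Rgl1 (0.0250) and Tcp11l1 (0.0277). For Ccl2 they were Fthl17b (0.0554) and Tas2r138 (0.0652), for Ccl7 Serpinb9g (0.0900) and Nox4 (0.0953), and for Ccl28 Luzp2 (0.0063) and Klra17 (0.0135). Pde6a, Nap1l2, Tas2r138, Serpinb9g, Luzp2 and Klra17 lay below the dim level on each of the 4 arrays, and Lrrc55 did on both DMSO arrays. The 4 arrays set few patterns apart. Within a distance of 0.2 there were 1324 genes for Ccl28, 692 for Ccl20, 345 for Csf1, 130 for Ccl5, 87 for Ccl2 and 13 for Ccl7.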

How the data were processed

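The authors deposited log2 expression values for 4 Affymetrix mouse arrays, per the labels robust multi-array averages of core exons from Expression Console; their processing notes also name Affymetrix Power Tools. The labels name no genome build for the deposited values. Groups and replicate numbers came from sample titles. Of 41345 probe sets, the 23521 with a single symbol gave 22180 genes, each represented by its probe set of highest mean. Changes were fitted with limma 3.58.1 (R 4.3.3) using an intensity trend, two-sided moderated tests, adjusted over all genes by Benjamini-Hochberg (threshold 0.05; 2 residual and 5.57 prior degrees of freedom). Tested on simulated data with these genes and variances drawn from the fitted prior, the procedure found 64.6% of changes of 1 and 99.2% of changes of 2 (log2). False calls were 5.23%. Smaller changes were not simulated, and the largest ligand change was 0.62 (Ccl7), so these rates do not give the power for the ligands. The number of arrays limits the precision.

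The ligand genes and the lists were chosen with earlier results of these data known. Named were all 9 ligands, up to 4 genes of each list with the smallest p, any list gene past the threshold, and the 2 genes nearest in pattern to each ligand with an unadjusted p under 0.05, passing over predicted genes, small RNAs and olfactory or vomeronasal receptors; chromosomal neighbours and marker genes were added. Related transcripts, as of Ccl2, Ccl7, Ccl11 and Ccl12 or of the near-identical Csf2rb and Csf2rb2, may share probe signal, which was not tested. Array scan dates were not used here. Between 142 and 181 of all values were identical in any pair of arrays. The alternatives are listed in the closing section.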

Additional observations from a re-analysis of the deposited data

How the results depend on the processing

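Alternatives were a prior without the intensity trend, a robust prior, leaving out dim genes, averaged probe sets, all probe sets, arrays centred on their median, quantile normalization, a block for replicate number, and leaving out each array. Without the intensity trend and with all probe sets, 0 of all genes or probe sets passed, so no ligand could. The count of ligand genes past the threshold was 0 in limma in the main fit and in each alternative that kept all 4 arrays. In those fits 4 to 6 ligands were higher at an unadjusted p under 0.05. With the replicate block 5 ligands were higher and 1 was lower (Cx3cl1) at an unadjusted p under 0.05. Replicate numbers did not pair the arrays (correlation of deviations -0.03), and over all genes the calls went from 96 to 10 with this block. With centred arrays 4 ligands were higher and 1 lower at that level.

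Signs of uncalled genes turned under some settings. Leaving out each array in turn, the change ran from -0.01 to 0.26 for Csf1r, -0.27 to 0.54 for Cx3cr1, -0.19 to 0.15 for Csf2ra, -0.14 to 0.12 for Ccl12, -0.17 to 0.07 for Il3 and -0.13 to 0.17 for Ccl22. After quantile normalization Csf2ra was at 0.04 and Ccl22 at -0.03, and with centred arrays Ccl22 was at -0.02. The calls of Ccl17, Cd68 and S100a8 each ended without the trend (adjusted p = 0.237, 0.169 and 0.237 in limma) and with all probe sets (0.478, 0.338 and 0.413). In both of these settings 0 of all genes or probe sets passed, so every call ended there. The same calls also ended with the replicate block (0.171, 0.0614 and 0.141), where 10 of all genes passed. A fit without 1 array leaves a single array in a group and was not used to judge these calls. The cause was not tested.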

Other observations

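The order of replicates within a group was read for the 9 ligand genes only, and its share over all genes was not counted. DMSO replicate 2 was below DMSO replicate 1 for 7 of the 9, with Ccl28 and Csf3 the exceptions. It was the lowest of all 4 arrays for 6. For a gene with both GSK126 arrays above both DMSO arrays, the lowest array is always a DMSO array. GSK126 replicate 2 was above GSK126 replicate 1 for 5 of the 9 (Ccl2, Ccl7, Ccl28, Csf1 and Csf2) and below it for 4. The mean log2 level of the 9 genes was 7.91 and 7.78 on DMSO replicates 1 and 2 and 8.06 and 8.17 on GSK126 replicates 1 and 2.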
